A study of Mus musculus with 25 samples.

Results

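The axon guidance ligands and receptors of sorted cortical cells were followed through spinal cord injury in mice. Their injected cortex did or did not receive Cre recombinase, meant to delete the transcription factor REST in neurons. Members were the genes whose symbols begin as those of the semaphorins, plexins, neuropilins, Eph receptors, ephrins, Robo and Slit proteins, netrins, Unc5 receptors, Dcc, Neo1, the Nogo (Rtn4) system with Lingo proteins, and the collapsin response mediator proteins (Dpysl, Crmp1) do, and 44 of the 9931 genes with a symbol matched. By role, 19 were ligands, 20 were receptors and 4 were cytosolic mediators. Unc50, an unrelated membrane protein, matched by its letters alone. The 44 include no netrin, no Dcc and no Rtn4r, so no netrin value stands beside the netrin receptors.

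The study asked what loss of REST does to the response of cortical neurons whose axons run in the spinal cord. Sensorimotor cortex of C57BL/6 mice, young adults of both sexes, was injected with an adeno-associated virus that carried GFP (AAV-Syn-GFP, the group called WT) or Cre recombinase (AAV-Syn-Cre, the group called REST cKO), each under the human synapsin promoter. The mice then had a complete crush at thoracic level 10 (SCI) or a sham operation, and GFP-positive or TdTomato-positive cells were sorted by flow cytometry after myelin removal and sequenced from the 3′ ends of their mRNA. All mice, the WT group included, had loxP-flanked (floxed) alleles of Rest together with a TdTomato reporter that Cre switches on, so WT here means floxed alleles without Cre. Virus and reporter colour differ between the genotypes along with REST and cannot be told apart from it. The 25 libraries fall into 8 groups: WT sham (n = 4), WT SCI day 1 (n = 3), WT SCI day 3 (n = 3), WT SCI day 7 (n = 3), REST cKO sham (n = 3), REST cKO SCI day 1 (n = 2), REST cKO SCI day 3 (n = 4) and REST cKO SCI day 7 (n = 3). The study counts replicates as mice, and the sources used here do not tie each library to its mouse. All 3 WT SCI day 7 libraries are female, and all 3 REST cKO sham and all 3 REST cKO SCI day 7 libraries are male. The labels also give 3 batches, of which batch 3 holds no WT sham, WT SCI day 1 or WT SCI day 7 library.

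Guidance cues are secreted or membrane-bound proteins that attract or repel a growth cone, and each family has its own receptors: semaphorins act through plexins and neuropilins, ephrins through Eph receptors, Slits through Robo receptors and netrins through Dcc, neogenin and Unc5. In the adult central nervous system several of them, and the Nogo system in particular, are known as inhibitors of axon growth. Receptors signal to the cytoskeleton, for the semaphorins in part through the collapsin response mediator proteins.

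Levels below are the deposited log2 normalized counts, and differences are log2 differences fitted with limma in a model that also holds 2 components of sequencing quality. They therefore differ somewhat from differences of group means. Higher and lower refer to the first group named, and adjusted p-values are Benjamini-Hochberg values over all 9931 genes, with 0.1 as the threshold. Values are listed in the order of the replicate numbers. Values are not divided by gene length, and the marker said to lead a list is the one with the highest mean log2 value.

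Rest itself had log2 levels of -0.55, -0.26, -0.39 and -1.55 in WT sham and of -2.65, -0.79 and -0.52 in REST cKO sham, so the sham groups overlapped. After injury its WT levels were -1.35, 0.71 and 0.27 on day 1, 1.64, 2.88 and 0.56 on day 3, and 0.26, 2.30 and 2.74 on day 7. In REST cKO they were -0.43 and -0.40 on day 1, -0.04, -0.31, -0.24 and -1.61 on day 3, and -1.21, -0.33 and -0.97 on day 7. Every WT library of days 3 and 7 lay above every REST cKO library of the same day, and on day 1 the genotypes overlapped. The sources used here do not say which part of Rest the floxed alleles remove, and reads come from the 3′ end, so these values do not check the deletion. For 140 genes, Rest among them, the deposited values still correlate with a component of sequencing quality, with a correlation of 1e-05 as the cut-off. Of the members 0 are of that kind.

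The labels name the cells cortical motor neurons, and the markers were mixed. All 9 neuronal markers were measured, with a summed log2 level of 3.49 to 5.70 across libraries and Syt1 in the lead (mean 2.78). All 5 excitatory markers were analysed, led by Slc17a7 (mean 1.95). Of 4 markers of corticospinal and deep layer neurons only Bcl11b was among the genes analysed, at -1.01 to 2.23, and Fezf2, Crym and Ldb2 were not analysed here. Of the inhibitory markers 4 of 6 were analysed, led by Gad2 (mean 0.19), with Slc32a1 under -2 in 8 libraries. Against the label, all 8 microglial markers were present in every library, with a summed level of 5.77 to 6.55, and none was under -2 in any library. Endothelial markers (8 of 8, 4.59 to 5.97, led by Flt1) and pericyte markers (4 of 4, 2.84 to 5.07, led by Rgs5) were measured too, with Cdh5 and Tek, both endothelial, under -2 in 1 library each. Astrocyte markers summed to 2.99 to 5.41 (4 of 7 analysed, led by Slc1a3) and oligodendrocyte markers to 2.64 to 5.84 (7 of 7, led by Mbp, with Mog under -2 in 10 libraries). Oligodendrocyte precursor markers summed to 1.59 to 3.77 (3 of 4 analysed, led by Cspg4, with Olig1 under -2 in 3 libraries). The material is therefore called sorted cells here. In such bulk libraries fewer cells of a type and less RNA per cell cannot be told apart, and this holds for each member below.

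**Figure D1:**
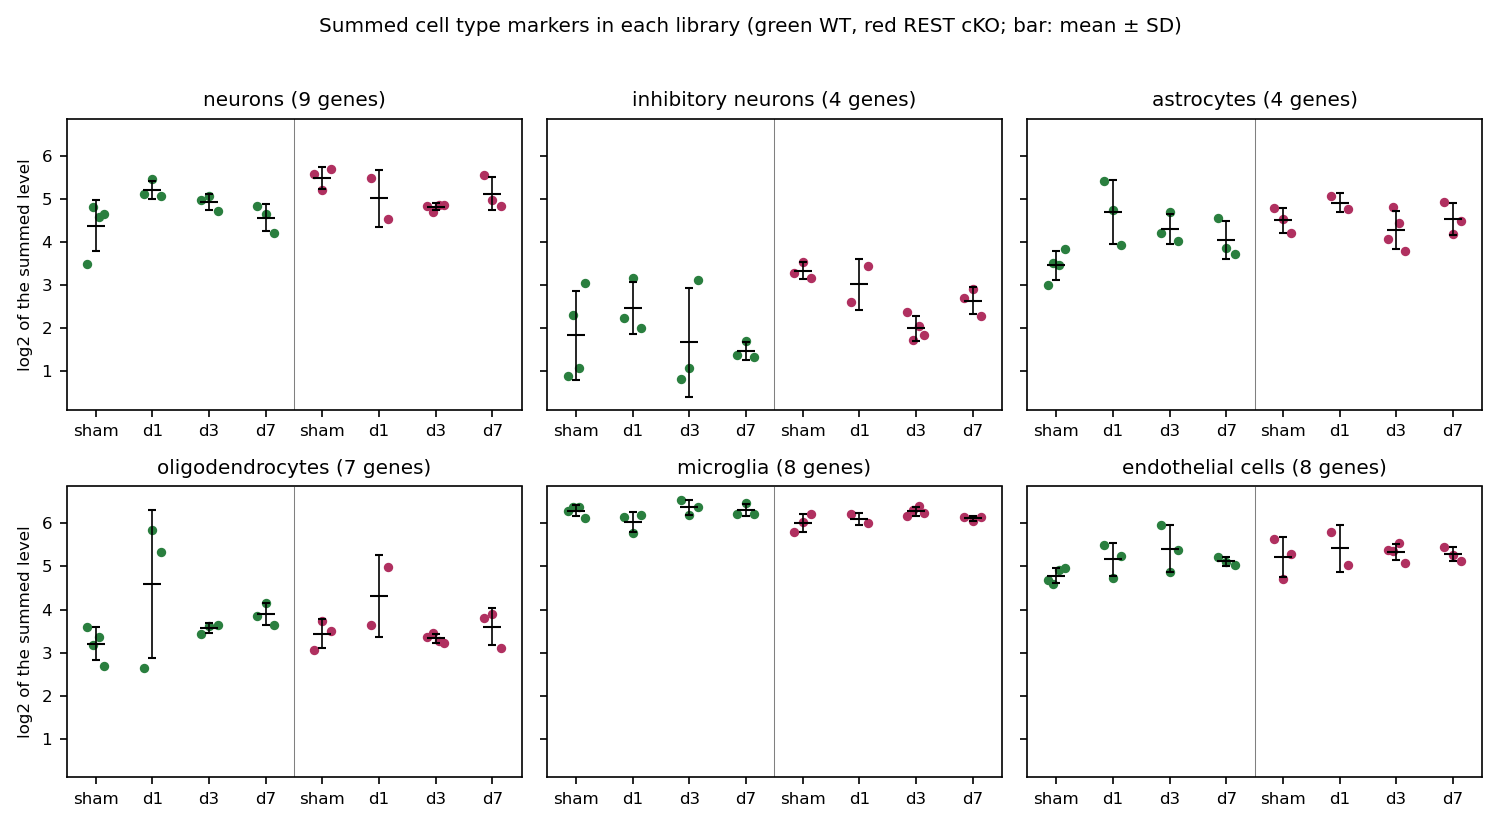
Summed level (log2) of the markers of 6 cell types in each library, by group, with points for libraries and bars for the mean ± SD. Microglial markers lie between 5.77 and 6.55 in every library, and oligodendrocyte markers reach 5.84 and 5.33 in 2 of the 3 WT SCI day 1 libraries.

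Several libraries stood apart before any comparison. WT SCI day 3 replicate 5 had 29.5% of all its values under -2, and the other 24 libraries had 2.77% to 16.98%. In that library 14 members lay under -2. The 3 WT SCI day 7 libraries had 11.1%, 16.98% and 12.2% of all values under -2, with 9, 8 and 10 members, against 10.7%, 8.84% and 2.77% with 2, 5 and 0 members in REST cKO SCI day 7. WT sham replicate 10 had 12 members under -2. The study gives an average read depth over the libraries and none for a single one, so here a low value cannot be told apart from a gene that was not detected. No 2 libraries were identical, and the correlation between 2 libraries ran from only 0.255 to 0.634. This limits every result that rests on a few libraries for each group.

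Among the 44 members 17 never lay under -2 and 27 did so at least once, 14 of them in at least 5 libraries. The Nogo ligand Rtn4, a reticulon of neurons and myelin, was the steadiest, with a mean of 2.73, a within-group SD of 0.311 and a range of 2.18 to 3.33. Next came the semaphorin co-receptor Nrp1 at 1.73 to 3.14 and the membrane-anchored Sema7a at 1.61 to 2.71. The other members that never lay under -2 were the ligands Sema4a, Sema4c, Sema4d and Efna1, the receptors Plxna2, Plxnb1, Plxnb2, Nrp2, Epha5, Rtn4rl1 and Lingo1, the mediators Dpysl2 and Crmp1, and Unc50. At the other end, Slit2 ranged from -4.07 to 1.33, Robo2 from -3.07 to 3.00, Dpysl3 from -3.50 to 2.26 and Plxnc1 from -3.73 to 2.59, and Slit2 and Efna4 were each under -2 in 10 libraries.

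**Figure D2:**
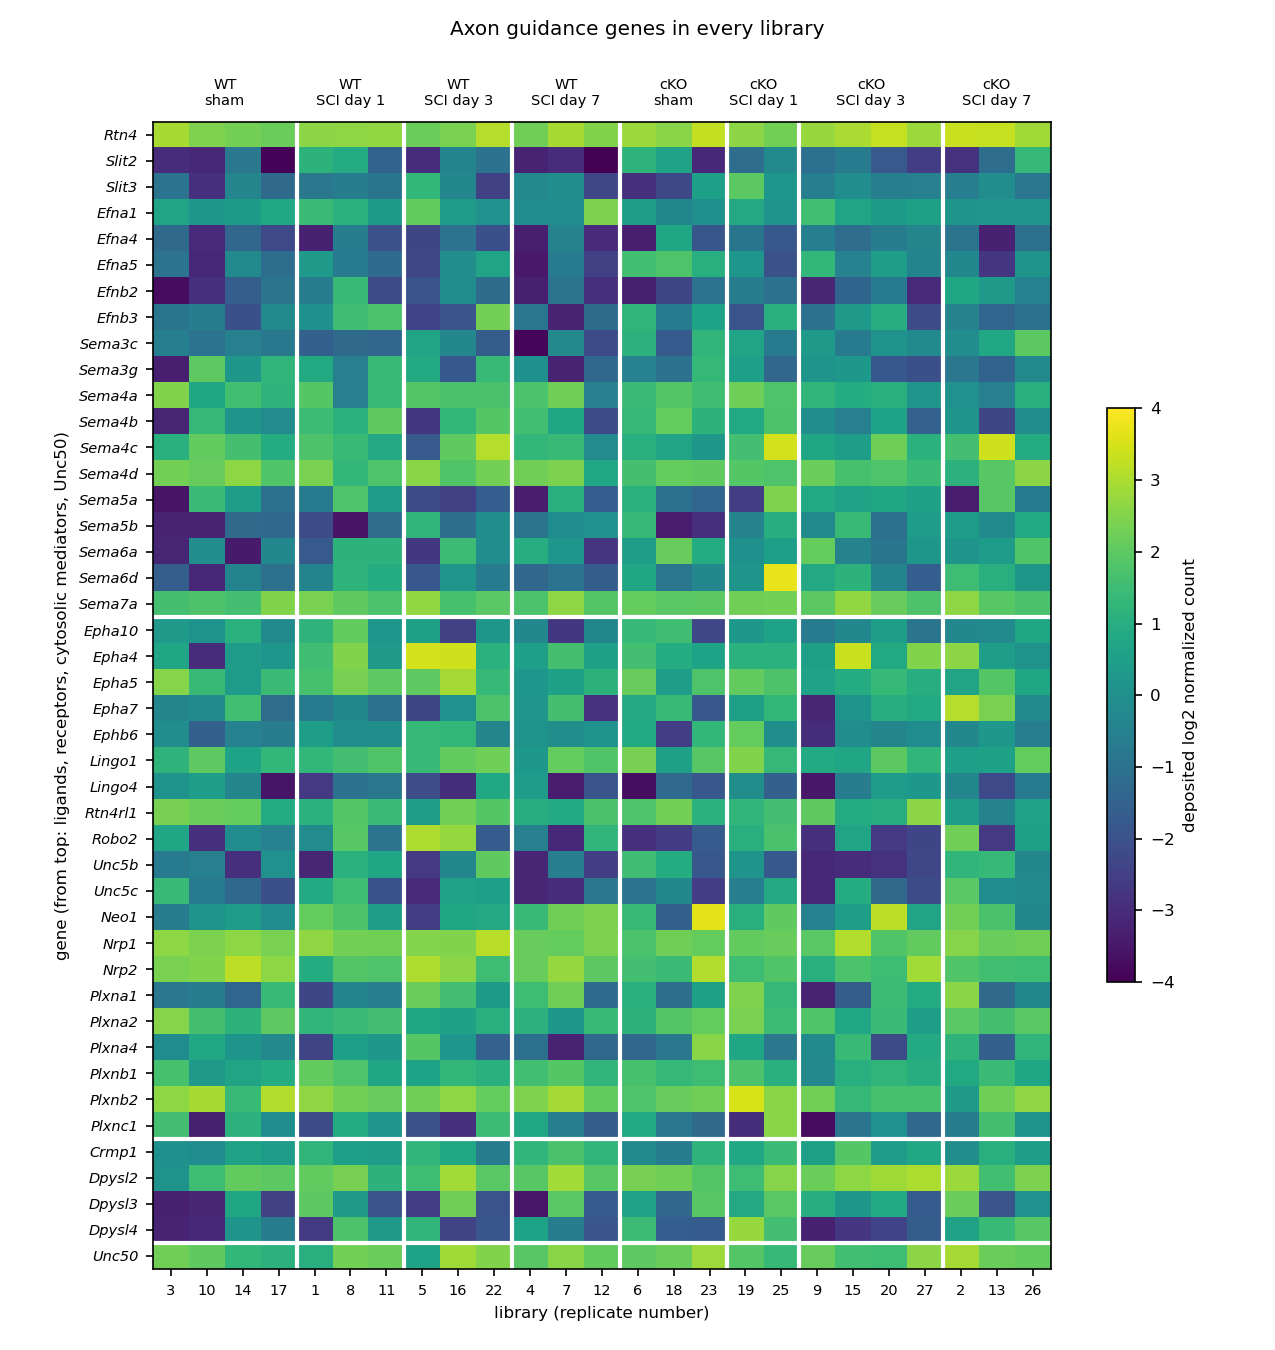
Deposited log2 normalized counts of the 44 axon guidance genes (lines, by role) in the 25 libraries (columns, by group). Rtn4, Nrp1 and Sema7a stay at 1.61 or above in every library, and members such as Slit2, Efna4 and Unc5b swing between values under -2 and values above 0.

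Across the 10 comparisons 0 of 440 member tests passed an adjusted p of 0.1 with limma, the smallest adjusted p being 0.336 (Sema3c, REST cKO against WT on day 7). An unadjusted p under 0.05 was reached in 38 of the 440 (8.64%), from 22 members, against 6.29% over all genes. In 26 of them (5.91%, against 3.72% over all genes) the libraries of the compared groups did not overlap, and those 26 came from 18 members. They are given library by library below. So are the remaining 12, in which the libraries overlapped, and values of Crmp1, Dpysl2, Dpysl3 and Dpysl4, all chosen after their values were seen. Of the 18 members, Nrp2, Plxna2, Epha5, Rtn4rl1 and Sema4a never lay under -2, and the other 13 did. A p that misses the threshold does not show that values did not differ. In the test over the 8 groups together 0 members passed the adjusted threshold (0.0101% of all genes did) and 7 had an unadjusted p under 0.05 (8.5% of all genes), with 0.473 as the smallest adjusted p. The 7 became 2 without the components, with a batch term or over the 23 members with a mean log2 of at least 0, and 4 after quantile normalization.

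After injury in WT, 0 members passed the adjusted threshold on day 1 (0% of all genes), and at an unadjusted p under 0.05 Sema6d, Slit2 and Efnb2, all ligands, were higher and Nrp2 was lower (3 and 1 of 44, against 3.92% and 2.52% of all genes). The median member difference was 0.53 and that of all genes 0.12. Without day 1 replicate 8 the former was 0.30, after quantile normalization 0.23 and over those 23 members 0.17. Of the member values 16.5% lay under -2 in WT sham and 8.33% in WT SCI day 1, beside 7.38% and 7.30% of all values. The part of low values was not tested beyond a term for their share in each library, with which the member median was 0.54. Day 3 again gave 0 adjusted calls among the members (0.0101% of all genes), with Epha4, Plxna1 and Sema5b higher and Plxna2 lower (3 and 1, against 3.64% and 3.26%). Its medians were 0.31 and 0.01, with 0.64 for the members without day 3 replicate 5, 0.48 after quantile normalization, 0.50 with a term for the share of low values and 0.17 over the 23 members. On day 7 there were 0 adjusted calls (0% of all genes), and Sema5b alone was higher (1 member, against 2.16% of all genes), with 0 members lower (against 4.72%) and medians of -0.09 and -0.12. That member median had no steady sign, since it ran from -0.37 without sham replicate 10 to 0.13 without day 7 replicate 4. With sham replicate 10 or day 7 replicate 7 left out the day 7 count of 1 was 0, with sham replicate 3 or 17 left out it was 2, and without day 7 replicate 4 or sham replicate 14 it was 3 or 4. The count of 4 on day 1 became 2 without replicate 8 of that day, 8 with library weights and 1 over the 23 members, and the day 7 count became 0 with library weights, 2 with a term for sex and 4 after quantile normalization. Within batches the median member difference of group means was 0.66 and -0.05 on day 1 (batches 1 and 2), 0.05 and 0.49 on day 3, and 0.05 and -0.82 on day 7, so its sign differed between batches on days 1 and 7. Batch 3 holds no WT sham library and gives no value.

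In REST cKO, day 1 gave 0 adjusted calls among the members (0% of all genes), and at an unadjusted p under 0.05 Robo2 and Slit3 were higher and Efna5 was lower (2 and 1, against 4.27% and 1.02% of all genes). On day 3 there were 0 adjusted calls (0.0201% of all genes), 0 members were higher (against 2.92%), and Unc5b and Dpysl4 were lower (2, against 1.73%). On day 7, with 0 adjusted calls (0% of all genes), Efnb2 was higher and Efna5, Rtn4rl1 and Sema4a were lower (1 and 3, against 3.54% and 2.12%). Median member differences were 0.26, -0.31 and 0.03 on days 1, 3 and 7, beside 0.29, 0.03 and 0.07 for all genes. The day 1 median was 0.16 without day 1 replicate 25, 0.45 without replicate 19, 0.41 without sham replicate 6 and 0.06 after quantile normalization. The day 3 median was -0.17 with a term for sex and -0.19 over the 23 members, and the day 7 median ran from -0.09 over the 23 to 0.19 with library weights, so its sign was not steady. Day 1 has 2 libraries, and its count of 3 became 1 with a batch term and 1 without REST cKO sham replicate 18. A batch term, or a model without the components, also brought the day 3 count of 2 to 1, and over the 23 members the counts were 0, 0 and 2. The day 3 count became 4 when sham replicate 6 was left out and 1 when day 3 replicate 15 was, and the day 7 count of 4 became 2 when day 7 replicate 13 was. Within batches the median member differences were 0.42 and 0.15 on day 1 (batches 2 and 3), -0.25, 0.44 and -0.47 on day 3, and -0.07, 0.00 and 0.15 on day 7 (batches 1, 2 and 3).

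Between the genotypes in sham mice, 0 members passed the adjusted threshold (0.0302% of all genes), and Efna5, Sema6a and Epha4 were higher in REST cKO at an unadjusted p under 0.05 (3, against 3.67% of all genes), with 0 lower (against 3.24%). The medians were 0.48 for members and 0.04 for all genes, and 0.56 and -0.14 for the members within batches 1 and 2. The member median was 0.20 without the components, 0.30 with library weights, 0.23 over the 23 members and 0.30 without REST cKO sham replicate 23. On day 1 there were 0 adjusted calls (0% of all genes), with Plxna1, Sema5b and Sema4a higher (3, against 2.81%) and 0 lower (against 0.997%), and medians of 0.31 and 0.19. Here the member median was 0.14 without the components, 0.16 with a batch term, 0.10 after quantile normalization, 0.16 without REST cKO replicate 25 and 0.72 without WT replicate 8. Only batch 2 holds both genotypes on day 1, with 1 library of each and a member median of 0.56. The sham count of 3 became 6 without WT sham replicate 14 and 1 over the 23. The 10 comparisons share libraries: each sham group enters 4 of them and each injured group 2, so a low or high library can recur in several results.

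On day 3 between the genotypes there were again 0 adjusted calls among the members (0% of all genes). At an unadjusted p under 0.05 Sema5a was higher in REST cKO, and 6 members were lower, namely Sema4a and the receptors Epha5, Ephb6, Plxna1, Robo2 and Unc5b (1 and 6 of 44, 2.27% and 13.6%, against 3.81% and 2.57% of all genes). Thus 5 of 20 receptors and 1 of 19 ligands were lower, and a difference between these roles was not tested. The medians were -0.23 for members, -0.43 for receptors, -0.03 for ligands and 0.05 for all genes. After quantile normalization the ligand median was -0.30. Without the components the member median was -0.06, with a term for sex -0.13, with library weights -0.35 and with a term for the share of low values -0.53. It was -0.49 without WT replicate 5, -0.15 without WT replicate 22 and -0.38 over the 23 members. Within batches 1, 2 and 3 it was -0.47, -0.14 and -0.33. Leaving out WT replicate 5, the library with the most low values, or WT replicate 16 brought the count of 7 to 3, and leaving out REST cKO replicate 9 brought it to 4. It was also 4 without the components and 3 over the 23 members or with the low-value term.

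On day 7 between the genotypes 0 members passed the adjusted threshold (0% of all genes) in the fit used here. With its own limma voom fit and the same threshold of 0.1, the study did report genes that differed between genotypes. It did so in sham and on days 3 and 7, with most of them on day 7. Why the fits differ was not tested. Higher in REST cKO at an unadjusted p under 0.05 were the ligands Sema3c, Efnb2, Slit2, Sema6d and Rtn4 and the receptors Unc5c and Unc5b (7 of 44, 15.9%, against 7.73% of all genes), and 0 members were lower (against 2.22%). Many of all genes were higher as well, and medians were 0.56 for members, 0.82 for the 19 ligands, 0.31 for the 20 receptors and 0.23 for all genes. Within batches the member median was 0.52 in batch 1 and 0.09 in batch 2. Leaving out WT SCI day 7 replicate 4 brought the count of 7 to 0, and leaving out replicate 2 of the REST cKO group brought it to 3. The member median was 0.24, 0.36 and 0.35 without WT replicates 4, 7 and 12, 0.32 without REST cKO replicate 13 and 0.16 after quantile normalization, with which the count was 3. The count was also 3 with a term for sex, where the median was 0.24. Among the 23 members with a mean log2 level of at least 0, 1 was counted and the median was -0.04. All WT libraries of that day are female and all REST cKO ones male, so sex and genotype cannot be told apart there. The term for sex rests on groups that hold both sexes and assumes the same difference between the sexes in every group. Low values moved with these groups as well, since 20.5% of the member values in WT SCI day 7 and 5.30% in REST cKO SCI day 7 lay under -2, and their part in the result was not tested beyond a model term for the low share of each library, with which 3 members were counted.

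**Figure D3:**
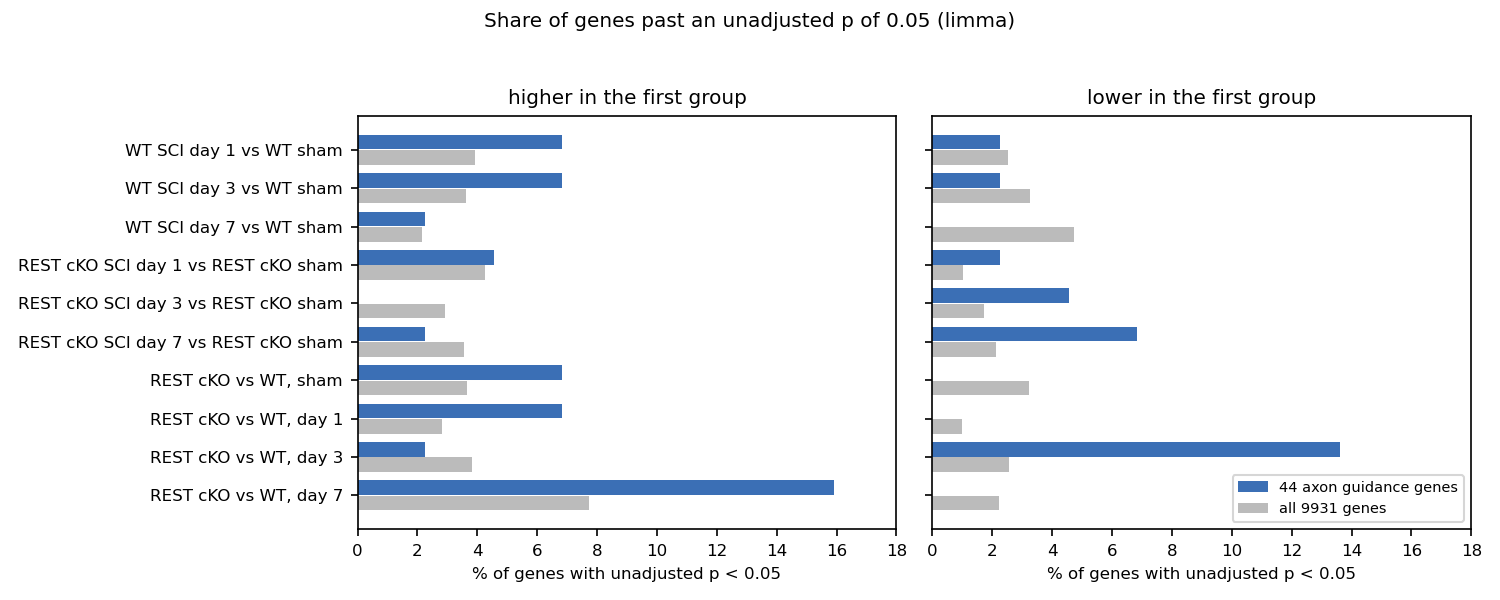
Share of the 44 axon guidance genes and of all 9931 genes with an unadjusted p under 0.05 (limma) in each of the 10 comparisons, higher on the left and lower on the right. The member share is largest for REST cKO against WT on day 7 (15.9% higher, against 7.73% of all genes) and on day 3 (13.6% lower, against 2.57%).

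Cell type markers moved with several of these comparisons, and their part in the results was not tested. Counts of markers are at an unadjusted p under 0.05, and 0 markers passed the adjusted threshold in limma in any of the 10 comparisons. Between genotypes in sham mice the neuronal sum was 3.49 to 4.80 in WT and 5.202 to 5.70 in REST cKO, with 5 of 9 markers higher. The astrocyte sum was 2.99 to 3.83 and 4.20 to 4.78, with 4 of 4 higher, and the inhibitory sum 0.88 to 3.05 and 3.16 to 3.55, with 0 of 4. None of these 3 sums overlapped. The microglial sum, 6.13 to 6.39 and 5.79 to 6.21, went the other way with 2 of 8 markers lower, while 2 of 8 endothelial and 1 of 5 excitatory markers were higher. On day 1 between genotypes 0 markers were counted. On day 3, where 6 members were lower, 1 of 5 excitatory, 1 of 8 microglial and 1 of 8 endothelial markers were lower, and the excitatory sum was 3.47 to 4.28 in WT and 2.93 to 3.57 in REST cKO. On day 7, where 7 members were higher, so were 2 of 9 neuronal, 1 of 5 excitatory and 1 of 4 astrocyte markers, and 1 of 8 microglial markers was lower. The sums that did not overlap on that day were the inhibitory one (1.32 to 1.70 in WT and 2.29 to 2.91 in REST cKO), the microglial one (6.22 to 6.47 and 6.05 to 6.16) and, by less than the rounding shows, the neuronal one (4.21 to 4.84 and 4.84 to 5.56).

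The markers of injured groups also lay apart from sham in places. In WT on day 1 the neuronal sum was 5.08 to 5.45, with 1 of 9 markers higher than in sham, the astrocyte sum 3.93 to 5.41, with 4 of 4, and the precursor sum 2.58 to 3.68 against 1.82 to 2.50, with 0 of 3, each above every sham library. Oligodendrocyte markers were higher in 3 of 7, with sums of 2.64, 5.84 and 5.33. The high sums came from the libraries with the higher Sema6d levels of that group (replicates 8 and 11). Slit2, also counted as higher on that day, was instead highest in replicate 1 (1.16), the library with the lowest sum. In addition 1 of 8 endothelial markers was higher. On day 3, 2 of 9 neuronal, 1 of 5 excitatory, 3 of 4 astrocyte and 3 of 8 endothelial markers were higher and 1 of 8 microglial markers was lower, and the astrocyte sum (4.03 to 4.70) lay above every sham library. On day 7, 2 of 4 astrocyte and 1 of 8 endothelial markers were higher, and the oligodendrocyte, precursor and endothelial sums lay above every sham library. In REST cKO the neuronal sum lay below every sham library on day 3, at 4.71 to 4.86, with 2 of 9 neuronal and 2 of 5 excitatory markers lower and 2 of 8 microglial markers higher. On day 7, 2 of 9 neuronal and 1 of 4 inhibitory markers were lower and 1 of 8 microglial markers was higher. The inhibitory sum was below every sham library on both days, at 1.73 to 2.38 on day 3 and 2.29 to 2.91 on day 7. On day 1 in REST cKO 2 of 4 astrocyte, 1 of 3 precursor and 1 of 8 microglial markers were higher, the precursor sum being 3.30 to 3.77 against 1.59 to 2.79 in sham, and the pericyte sum (3.58 to 3.74) lay below every sham library (3.87 to 4.47).

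Scaling bears on these counts. Quantile normalization of the libraries moved the median difference of all genes by -0.14 in WT on day 1, by 0.12 in WT on day 7, by -0.30 in REST cKO on day 1, by -0.21 between genotypes on day 1 and by -0.26 between genotypes on day 7. Relative to the median of all genes, the member median on day 7 between genotypes was 0.33 as deposited and 0.19 after quantile normalization, and in WT on day 1 it was 0.41 and 0.25. For the remaining shifted comparisons it was 0.03 and 0.11 in WT on day 7, -0.02 and 0.07 in REST cKO on day 1, and 0.11 and 0.11 between genotypes on day 1. The ligand median between genotypes on day 7 went from 0.82 to 0.20, with 15 and 13 of 19 ligands positive. The receptor median of that comparison went from 0.31 to 0.03, with 12 and 10 of 20 receptors positive. On day 3 between genotypes the receptor median went from -0.43 to -0.49, with 5 of 20 receptors positive in both. The ligand median there went from -0.03 to -0.30, with 9 and 6 of 19 ligands positive. The share of higher genes among all those with an unadjusted p under 0.05 went from 60.9% to 49.0% in WT on day 1, from 31.4% to 47.7% in WT on day 7 and from 80.8% to 50.2% in REST cKO on day 1. It went from 62.5% to 52.1% in REST cKO on day 7, from 73.8% to 52.1% between genotypes on day 1 and from 77.7% to 52.8% between genotypes on day 7.

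Of the ligands, the semaphorins are the largest family, with Sema3c, Sema3g, Sema4a, Sema4b, Sema4c, Sema4d, Sema5a, Sema5b, Sema6a, Sema6d and Sema7a. Sema6d, a transmembrane semaphorin that binds plexin-A1, had log2 levels of -1.57, -3.11, -0.40 and -1.04 in WT sham and of -0.40, 1.19 and 0.96 in WT SCI day 1. All 3 day 1 libraries lay above the highest sham library, replicate 1 by less than the rounding shows, and the difference was 2.52 (SE 1.02, adjusted p = 0.664). On day 7 its levels were -1.35, -0.95 and -1.64 in WT and 1.51, 1.05 and 0.24 in REST cKO. WT lay within the range of WT sham and every REST cKO library was above 0, a genotype difference of 2.49 (SE 1.05, adjusted p = 0.423). Sema3c, a secreted semaphorin that acts through neuropilins, read -3.89, -0.22 and -2.19 in WT and -0.08, 0.75 and 1.99 in REST cKO on day 7. REST cKO was higher in 3 of 3 libraries, with WT replicate 7 close below them, and the difference of 2.91 (SE 1.06, adjusted p = 0.336) carried the smallest adjusted p of any member. Without WT replicate 4 it was 1.86. In WT sham Sema3c had been far tighter, at -0.55, -0.95, -0.51 and -0.77.

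Sema5b, a transmembrane semaphorin with thrombospondin repeats, was low in WT sham, with log2 levels of -3.20, -3.21, -1.24 and -1.29. It read 1.22, -1.11 and -0.02 on day 3 and -0.91, -0.10 and 0.03 on day 7 after injury in WT. All 6 injured libraries lay above all 4 sham libraries, with differences of 3.18 (SE 1.19, adjusted p = 0.629) on day 3 and 2.39 (SE 1.08, adjusted p = 0.663) on day 7. WT day 1 was still low, at -2.18, -3.58 and -1.15, and the REST cKO libraries of day 1 were above them at -0.43 and 0.98, a genotype difference of 3.75 (SE 1.43, adjusted p = 0.999). Its relative Sema5a gave log2 levels of -2.14, -2.46 and -1.61 in WT and 0.85, 0.62, 0.71 and 0.57 in REST cKO on day 3. The REST cKO libraries sat close together above every WT library, with a difference of 3.53 (SE 1.44, adjusted p = 0.756), although Sema5a spread from -3.57 to 2.46 over all libraries.

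Sema6a, a transmembrane ligand of plexin-A2 and plexin-A4, had log2 levels of -3.16, -0.09, -3.44 and -0.27 in WT sham and 0.50, 2.14 and 0.92 in REST cKO sham. WT sham held a low and a middle pair, both below every REST cKO sham library, and the difference was 3.76 (SE 1.36, adjusted p = 0.562), or 5.73 without REST cKO sham replicate 6. Sema4a, a transmembrane semaphorin also known from immune cells, read 1.46, 1.85 and 1.55 in REST cKO sham and 0.06, -0.52 and 1.02 in REST cKO SCI day 7. Every day 7 library was below every sham library, with a difference of -1.996 (SE 0.721, adjusted p = 0.840). On day 3 its levels were 1.87, 1.70 and 1.72 in WT and 1.23, 0.97, 1.06 and 0.16 in REST cKO, all 4 REST cKO libraries lower, with a difference of -1.41 (SE 0.677, adjusted p = 0.780). It was -0.82 without REST cKO replicate 27 and -0.91 without the components in the model. On day 1 Sema4a was instead higher in REST cKO, at 2.23 and 1.78 against 1.88, -0.51 and 1.42 in WT, with overlap and a difference of 1.88 (SE 0.850, adjusted p = 0.999). The remaining semaphorins, Sema3g, Sema4b, Sema4c, Sema4d and Sema7a, reached an unadjusted p under 0.05 in 0 of the 10 comparisons.

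The ephrins were Efna1, Efna4, Efna5, Efnb2 and Efnb3. Efna5, a membrane-anchored ligand of EphA receptors, had log2 levels of -0.95, -3.08, -0.18 and -1.12 in WT sham and 1.57, 1.78 and 1.02 in REST cKO sham. Each REST cKO sham library lay above each WT sham library, with a difference of 3.65 (SE 1.19, adjusted p = 0.534). After injury in REST cKO it read 0.21 and -2.004 on day 1 and -0.25, -2.74 and 0.16 on day 7. Both groups were wholly below REST cKO sham, with differences of -2.50 (SE 1.21, adjusted p = 0.924) and -2.99 (SE 1.18, adjusted p = 0.840), and both are measured against the same 3 sham libraries as the genotype difference. Without replicate 25 the day 1 difference was -1.64, and without replicate 13 the day 7 difference was -1.94. Efnb2, a transmembrane ephrin that binds EphB receptors and EphA4, read -3.29, -0.93 and -2.92 in WT and 0.70, 0.33 and -0.47 in REST cKO on day 7, and -3.30, -2.33 and -0.95 in REST cKO sham. REST cKO SCI day 7 was above both other groups in 3 of 3 libraries, with differences of 2.90 (SE 1.09, adjusted p = 0.348) against WT and 2.73 (SE 1.16, adjusted p = 0.843) against its sham. The latter was 1.40 without sham replicate 6. In WT on day 1 Efnb2 was also higher than sham, at -0.63, 1.42 and -2.21 against -3.73, -2.93, -1.57 and -0.93, but with overlap, and the difference was 2.33 (SE 1.06, adjusted p = 0.727). Efna1, Efna4 and Efnb3 reached an unadjusted p under 0.05 in 0 of the comparisons.

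Slit2, a secreted repellent that binds Robo receptors, was near the bottom of the scale in most WT sham libraries, with log2 levels of -2.99, -3.11, -0.79 and -3.92, and read 1.16, 0.92 and -1.44 on day 1. Replicates 1 and 8 of day 1 were above every sham library and replicate 11 was not, and the difference was 3.43 (SE 1.18, adjusted p = 0.634). On day 7 WT was low throughout, at -3.23, -2.99 and -4.07, and REST cKO read -2.83, -1.13 and 1.33. REST cKO was higher in 3 of 3 libraries, but replicate 2 by little, and the difference was 2.88 (SE 1.21, adjusted p = 0.420), or 1.78 without REST cKO replicate 26. Slit3, of the same family, had levels of 1.98 and 0.19 in REST cKO SCI day 1 against -2.91, -2.25 and 0.51 in its sham, with overlap through sham replicate 23 and a difference of 2.61 (SE 1.23, adjusted p = 0.924). Rtn4, the Nogo protein of myelin, differed by far less, from 2.57 ± 0.341 (SD, n = 3) in WT to 3.16 ± 0.274 (SD, n = 3) in REST cKO on day 7. Its libraries read 2.27, 2.94 and 2.49 and 3.33, 3.31 and 2.85, which overlap through WT replicate 7, and the difference was 0.62 (SE 0.280, adjusted p = 0.467).

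**Figure D4:**
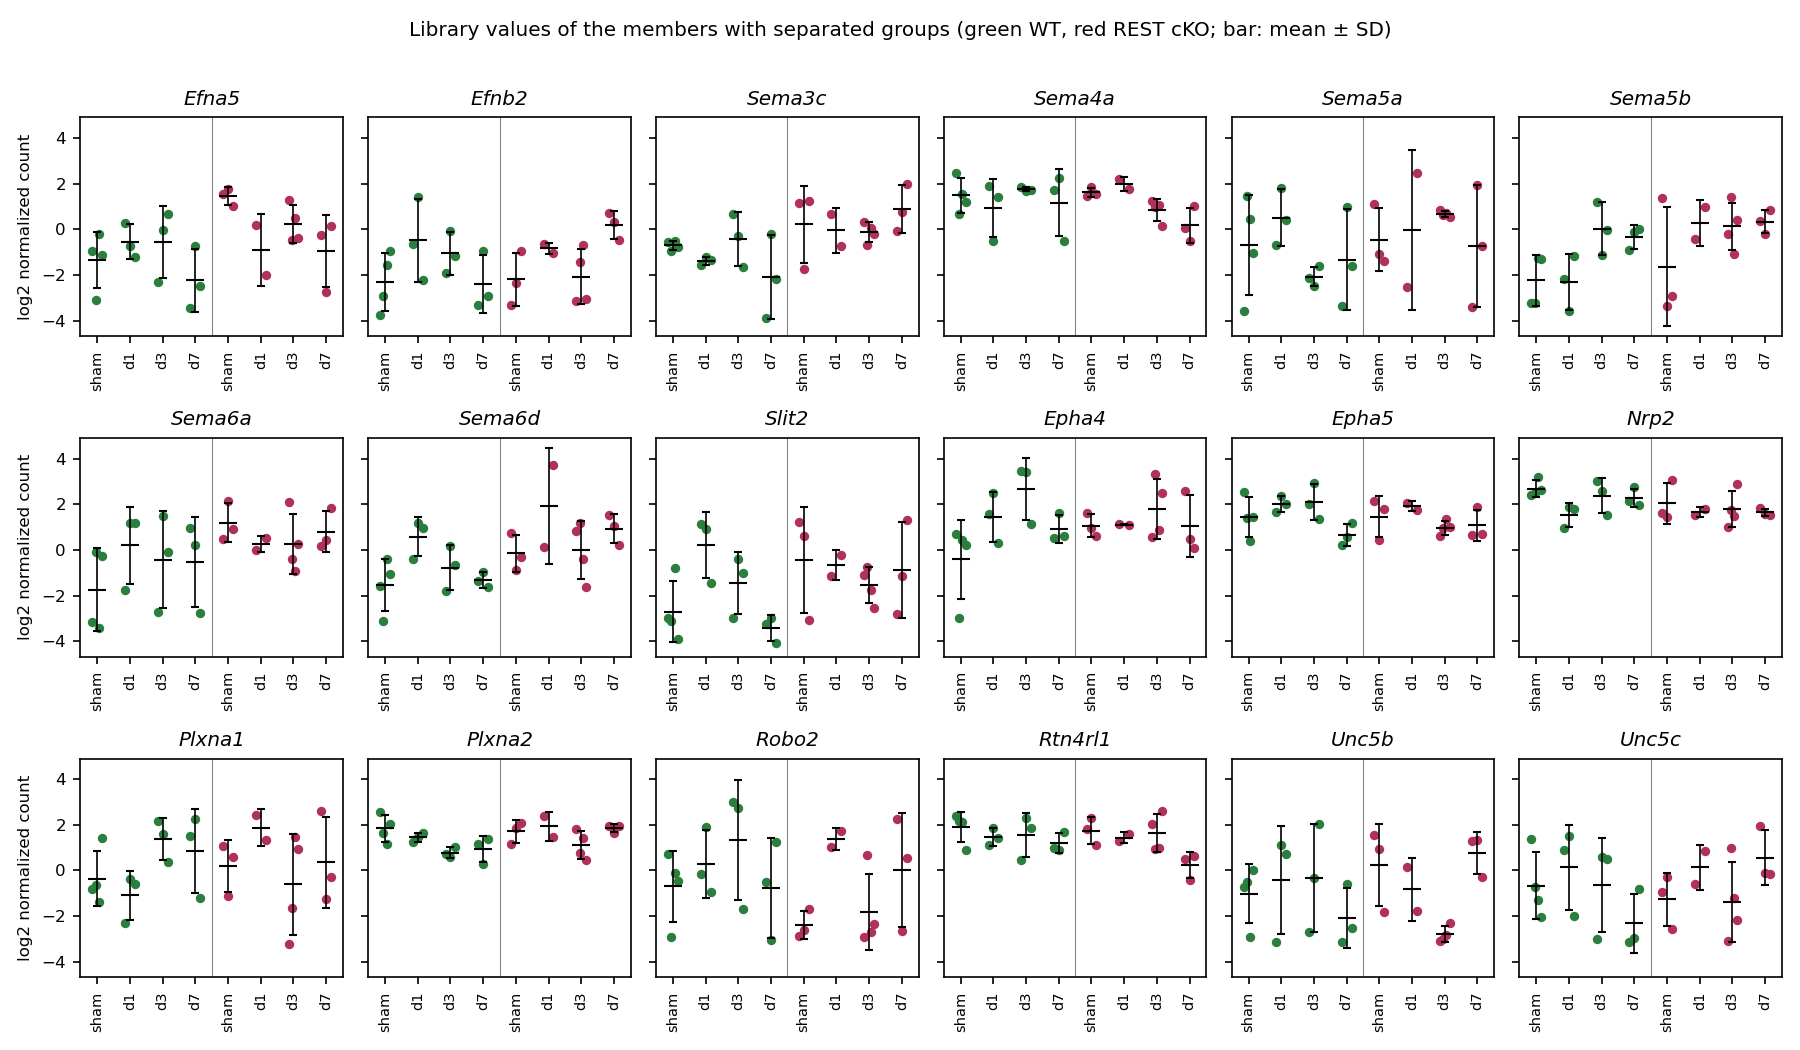
Deposited log2 normalized counts of the 18 axon guidance genes with an unadjusted p under 0.05 and no overlap in at least 1 comparison, in WT (green) and REST cKO (red) sham and SCI days 1, 3 and 7, with points for libraries and bars for the mean ± SD. In Epha4 the WT SCI day 3 libraries (3.47, 3.42 and 1.12) lie above all WT sham libraries, and in Efna5 the REST cKO sham libraries (1.02 to 1.78) lie above all WT sham libraries.

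Among the receptors, the plexins Plxna1, Plxna2, Plxna4, Plxnb1, Plxnb2 and Plxnc1 and the neuropilins Nrp1 and Nrp2 take up semaphorins. Nrp2, a co-receptor for secreted semaphorins, had log2 levels of 2.40, 2.48, 3.21 and 2.64 in WT sham and 0.95, 1.87 and 1.80 in WT SCI day 1. The 3 day 1 libraries were all below the sham libraries, from 2.68 ± 0.369 (SD, n = 4) to 1.54 ± 0.514 (SD, n = 3), and the difference was -1.36 (SE 0.471, adjusted p = 0.634), or -2.05 without replicate 8 of day 1. Plxna2, a receptor of transmembrane semaphorins, read 2.56, 1.65, 1.17 and 2.02 in WT sham and 0.73, 0.58 and 1.04 in WT SCI day 3. Day 3 was lower in 3 of 3 libraries, with a difference of -1.19 (SE 0.541, adjusted p = 0.688). Neither gene lay under -2 in any library.

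Plxna1, the partner of Sema6d and of neuropilin complexes, had log2 levels of -2.31, -0.40 and -0.57 in WT and 2.44 and 1.32 in REST cKO on day 1. Both REST cKO libraries were above all 3 WT libraries, with a difference of 4.83 (SE 1.42, adjusted p = 0.999), the largest fitted difference among the 26 and one that exceeds the difference of the group means. Without the components in the model it was 2.98. On day 3 the genotypes were the other way round on average, at 2.19, 1.60 and 0.37 in WT and -3.25, -1.63, 1.48 and 0.93 in REST cKO. The groups overlapped, since REST cKO held the lowest libraries (replicates 9 and 15) and also values inside the WT range, and the difference was -3.22 (SE 1.14, adjusted p = 0.650). WT day 3 was itself higher than WT sham (-0.80, -0.64, -1.38 and 1.40), with overlap through sham replicate 17 and a difference of 3.22 (SE 1.18, adjusted p = 0.629). Plxna4, Plxnb1, Plxnb2, Plxnc1 and Nrp1 reached an unadjusted p under 0.05 in 0 of the comparisons.

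The Eph receptors were Epha4, Epha5, Epha7, Epha10 and Ephb6. Epha4, a receptor for ephrins of both classes with a known role in corticospinal tract guidance, had log2 levels of 0.71, -2.99, 0.41 and 0.21 in WT sham and 3.47, 3.42 and 1.12 in WT SCI day 3. All 3 injured libraries were above all 4 sham libraries, with replicates 5 and 16 far above, and the difference of 3.78 (SE 0.955, adjusted p = 0.460) had the smallest unadjusted p of any member. Sham replicate 10 was far below the other sham libraries. In sham mice Epha4 was also higher in REST cKO, at 1.60, 0.95 and 0.63, with overlap and a difference of 2.26 (SE 0.986, adjusted p = 0.669). Epha5, a receptor of A-class ephrins, read 2.02, 2.92 and 1.37 in WT and 0.60, 0.95, 1.34 and 0.99 in REST cKO on day 3. REST cKO was lower in 4 of 4 libraries, replicate 20 only just, and the difference was -1.26 (SE 0.594, adjusted p = 0.780), or -0.80 without WT replicate 16. Ephb6, an Eph receptor without kinase activity, read 1.33, 1.31 and -0.35 and -2.97, -0.07, -0.36 and -0.11 on the same day, which overlap, with replicate 9 far below and a difference of -2.23 (SE 1.03, adjusted p = 0.780). Epha7 and Epha10 reached an unadjusted p under 0.05 in 0 of the comparisons.

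Robo2, a Slit receptor, was low in REST cKO sham, with log2 levels of -2.89, -2.61 and -1.70, and read 1.03 and 1.71 in REST cKO SCI day 1. Both day 1 libraries were above all 3 sham libraries, with a difference of 3.81 (SE 1.61, adjusted p = 0.924). On day 3 it read 3.00, 2.72 and -1.68 in WT and -2.90, 0.67, -2.68 and -2.33 in REST cKO, overlapping through WT replicate 22 and REST cKO replicate 15, with a difference of -3.28 (SE 1.48, adjusted p = 0.780). The Unc5 receptors, which mediate repulsion by netrins, were both low in WT SCI day 7. Unc5b read -3.14, -0.59 and -2.50 in WT and 1.28, 1.34 and -0.30 in REST cKO, all REST cKO libraries higher, with a difference of 2.95 (SE 1.29, adjusted p = 0.443). Unc5c read -3.14, -2.98 and -0.83 and 1.95, -0.12 and -0.16, again without overlap, and differed by 3.22 (SE 1.30, adjusted p = 0.401). With a term for sex that difference was 1.77, and after quantile normalization 1.91. On day 3 Unc5b was uniformly low in REST cKO, at -3.09, -2.99, -2.83 and -2.30, below each REST cKO sham library (1.56, 0.95 and -1.82). That difference was -3.71 (SE 1.33, adjusted p = 0.905), and against WT on day 3 (-2.68, -0.32 and 2.04), with overlap, it was -3.05 (SE 1.29, adjusted p = 0.780).

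Counted with the receptors of the Nogo system were Rtn4rl1, the co-receptor Lingo1 and its relative Lingo4, which is placed here by its symbol. Rtn4rl1, a homolog of the Nogo receptor, had log2 levels of 1.81, 2.31 and 1.12 in REST cKO sham and 0.49, -0.42 and 0.62 in REST cKO SCI day 7. The day 7 libraries were all below the sham libraries, with a difference of -1.60 (SE 0.641, adjusted p = 0.840). Lingo1, Lingo4 and the netrin and repulsive guidance molecule receptor Neo1 (neogenin) reached an unadjusted p under 0.05 in 0 of the comparisons, although Neo1 spread from -2.54 to 3.66.

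The cytosolic mediators Dpysl2, Dpysl3, Dpysl4 and Crmp1, which bind tubulin and relay semaphorin signals, had positive differences in 4 of 4 in WT on each day after injury, also after quantile normalization. Of all genes 55.9%, 50.7% and 43.9% had positive differences on days 1, 3 and 7. All 3 days are measured against the same 4 sham libraries. The medians of the mediators were 1.17, 1.23 and 1.21 on days 1, 3 and 7, with 0 of 4 at an unadjusted p under 0.05 in limma each time. In REST cKO against its sham 3, 2 and 2 of 4 were positive on days 1, 3 and 7, with medians of 0.96, -0.31 and 0.17. Between genotypes in sham and on days 1, 3 and 7, 3, 4, 3 and 2 of 4 were positive. The medians there were 1.52, 1.15, 0.34 and 0.61, and the sham one uses the same 4 WT sham libraries. In WT sham Dpysl3 read -3.28, -3.15, 0.69 and -2.43, low in every library but replicate 14. Dpysl4 read -3.23, -3.12, 0.14 and -0.64 there, low in replicates 3 and 10. Dpysl2 read 0.09, 1.51, 2.08 and 1.98 in WT sham, 2.09, 2.35 and 1.16 on day 1, 1.52, 2.88 and 1.95 on day 3 and 1.93, 2.88 and 1.92 on day 7. Sham replicate 3 alone was near 0 and the other sham libraries lay within the injured range. Dpysl4 had levels of 1.48, -1.60 and -1.68 in REST cKO sham and -3.28, -2.74, -2.38 and -1.65 on day 3, which overlap, with a difference of -2.70 (SE 1.28, adjusted p = 0.999). Dpysl3 swung from -3.50 to 2.26 and Crmp1 from -0.64 to 1.89 over all libraries. Crmp1 read 0.02, -0.09, 0.60 and 0.38 in WT sham and 1.27, 1.69 and 1.24 in WT SCI day 7. These 2 groups did not overlap, and the difference was 1.14 (SE 0.696, adjusted p = 0.806). On days 1 and 3 the WT libraries overlapped with sham.

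Whether the response to injury differed between genotypes was tested as an interaction. On day 1 0 members passed the adjusted threshold in limma (0% of all genes) and 1, Slit2, had an unadjusted p under 0.05 (5.77% of all genes), at -3.59 (SE 1.74, adjusted p = 0.862). That count was 0 with a term for sex or a mean log2 of at least 0 and 3 after quantile normalization. On day 3 there were 0 adjusted calls (0% of all genes) and 5 members under 0.05 (5.15% of all genes), Plxna1, Epha4, Unc5b, Ephb6 and Dpysl4, 4 of them receptors. All 5 were negative, that is, the REST cKO difference from its sham was lower than the WT one. Plxna1 had -5.41 (SE 1.84, adjusted p = 0.912) and Epha4 -3.69 (SE 1.49, adjusted p = 0.950). The count of 5 was 1 without the sequencing components in the model, 2 with a mean log2 of at least 0 and 8 with library weights. On day 7 0 members passed (0.0201% of all genes) and Unc5c alone was under 0.05 (1, against 6.35% of all genes), at 4.20 (SE 1.96, adjusted p = 0.782). A batch term, a mean log2 of at least 0 or leaving the components out took this to 0 members, library weights to 2 and quantile normalization to 3. These interactions use the same libraries as the differences above and add no separate support.

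Beyond the members, 67 listed genes of the pathway were analysed, 20 of 25 co-receptors and other cues and 47 of 55 cytosolic effectors. In WT after injury 2, 3 and 0 were higher at an unadjusted p under 0.05 on days 1, 3 and 7 (2.99%, 4.48% and 0%, against 3.92%, 3.64% and 2.16% of all genes), and 1, 2 and 5 were lower (1.49%, 2.99% and 7.46%, against 2.52%, 3.26% and 4.72%). In REST cKO 0, 1 and 3 were higher (0%, 1.49% and 4.48%, against 4.27%, 2.92% and 3.54%) and 4, 1 and 3 lower (5.97%, 1.49% and 4.48%, against 1.02%, 1.73% and 2.12%). Between genotypes in sham and on days 1, 3 and 7, 5, 0, 2 and 10 were higher (7.46%, 0%, 2.99% and 14.9%, against 3.67%, 2.81%, 3.81% and 7.73%). Lower were 1, 1, 3 and 2 (1.49%, 1.49%, 4.48% and 2.99%, against 3.24%, 0.997%, 2.57% and 2.22%). In limma 0 passed the adjusted threshold in any comparison, and their median differences between genotypes in sham and on days 1, 3 and 7 were 0.51, 0.04, 0.15 and 0.58, beside 0.04, 0.19, 0.05 and 0.23 for all genes.

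The adhesion molecule Nrcam, which forms receptor complexes with neuropilins, had log2 levels of -0.73, -0.49, -0.64 and 0.12 in WT sham and 3.22, 1.86 and 2.02 in WT SCI day 3. All 3 libraries were above sham, with a difference of 3.33 (SE 1.05, adjusted p = 0.601), and on day 3 REST cKO (1.28, -0.04, -0.29 and 0.41) was below WT in 4 of 4, with a difference of -2.45 (SE 1.00, adjusted p = 0.756). On day 7 it was above WT (-0.81, -3.13 and -2.37) in 3 of 3, at 0.25, 1.14 and 1.57, with a difference of 3.15 (SE 1.00, adjusted p = 0.262). Vav2, a guanine nucleotide exchange factor downstream of ephrins, read 1.32, 1.91, 1.83 and 0.63 in WT sham and -0.64, -0.68 and -0.62 in WT SCI day 7, lower in 3 of 3 with a difference of -2.34 (SE 0.655, adjusted p = 0.364). In REST cKO it read -1.16, -0.21 and 0.27 in sham and 1.89, 1.49 and 0.58 on day 7, higher in 3 of 3 with a difference of 2.16 (SE 0.738, adjusted p = 0.838). Against WT it was lower in sham, at -2.35 (SE 0.745, adjusted p = 0.496), and higher on day 7, at 2.15 (SE 0.692, adjusted p = 0.264).

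Other effectors with separated groups were lower in WT SCI day 7 than in WT sham, namely the kinases Fes at -2.90 (SE 1.05, adjusted p = 0.533) and Pak3 at -2.64 (SE 1.04, adjusted p = 0.572) and Mical2, of a family of semaphorin effectors, at -2.33 (SE 0.927, adjusted p = 0.572). In WT SCI day 7 Fes read -3.05, -3.24 and -1.84, Pak3 -0.88, -3.06 and -3.61 and Mical2 -3.29, -0.81 and -1.80. Values this low cannot be told apart from a gene that was not detected. In REST cKO Mical2 and Fes were lower on day 7, at -2.91 (SE 1.04, adjusted p = 0.840) and -2.67 (SE 1.19, adjusted p = 0.862), and the kinase Abl2 was higher, at 2.28 (SE 1.09, adjusted p = 0.874). On day 1 in REST cKO the Eph effectors Ngef and Chn1, the focal adhesion kinase Ptk2 and Fes were lower, at -2.20 (SE 0.868, adjusted p = 0.886), -1.47 (SE 0.624, adjusted p = 0.924), -2.87 (SE 1.36, adjusted p = 0.924) and -2.52 (SE 1.22, adjusted p = 0.924). Chn1 and Ngef act below EphA receptors on the actin cytoskeleton. Ptk2 and Chn1 were higher in REST cKO than in WT sham, at 3.21 (SE 1.34, adjusted p = 0.630) and 1.41 (SE 0.614, adjusted p = 0.669). The cofilin phosphatase Ssh1 was lower in WT SCI day 1, at -2.81 (SE 1.23, adjusted p = 0.725). On day 3 the netrin co-receptor Dscam was lower in REST cKO, at -3.43 (SE 1.23, adjusted p = 0.653), as was Met, at -2.78 (SE 1.14, adjusted p = 0.758). On day 7 Itsn1, Ptprf and Abl1 were higher in REST cKO, at 2.92 (SE 0.970, adjusted p = 0.281), 2.91 (SE 1.05, adjusted p = 0.336) and 3.15 (SE 0.904, adjusted p = 0.232). Met and Abl1 belong to the 140 genes mentioned with Rest.

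By position, the 44 genes lie mostly apart. Efna1 and Efna4 are neighbours on chromosome 3, 52248 bases apart in the GRCm38 annotation, with Sema4a on the same stretch at 810551 bases from Efna1. Neo1 and Sema7a lie 911822 bases apart on chromosome 9 and Sema4c and Unc50 871790 bases apart on chromosome 1.

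REST binds a bipartite element, and its letters were searched in the RefSeq promoters (GRCm38.p6, 250 bases before to 50 after each start) of the 36 members with an entry, which have 53 promoters. Dpysl2, Dpysl3, Dpysl4, Efnb3, Plxna1, Plxna4, Rtn4rl1 and Sema6a had no entry. The motif letters were chosen after expression values had been seen. On either strand, AGCACCNNGGACAG occurred in 1 member, Robo2, and in 0.0592% of all 27025 genes (0.0517% of 32851 promoters). Its left part with 1 base more in front, CAGCACC, which overlaps the full motif, occurred in 5 members, Efna1, Epha10, Sema3c, Sema5b and Sema6d, and in 8.14% of all genes (7.14% of promoters). Its right part GGACAG, which overlaps the full motif, occurred in 13 members and in 24.7% of all genes (22.2% of promoters). A match describes letters in a window and shows neither a site nor a cause.

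Shown are the promoter with the full motif and those of the 3 members with the left part that are among the 18, with the matched letters in capitals. Robo2 is on the minus strand at chr16:75447244-75447543, with its match at bases 175 to 188. This start lies upstream of the annotated gene span (73891839 to 74411825), and 3′ reads cannot tell which start was used. Sema3c is on the plus strand at chr5:17574566-17574865, Sema5b on the plus strand at chr16:35541112-35541411 and Sema6d on the plus strand at chr2:124653331-124653630. The Sema6d start lies inside the annotated gene span (124089969 to 124667770), close to its 3′ end. In Sema5b and Sema6d the match is on the opposite strand, so the capitals read GGTGCTG.
Robo2: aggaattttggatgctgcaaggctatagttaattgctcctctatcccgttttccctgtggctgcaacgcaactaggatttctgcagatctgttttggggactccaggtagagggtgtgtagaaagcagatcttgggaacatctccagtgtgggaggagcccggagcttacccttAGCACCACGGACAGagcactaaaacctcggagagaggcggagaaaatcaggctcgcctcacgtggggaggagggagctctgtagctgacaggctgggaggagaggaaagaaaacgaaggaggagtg
Sema3c: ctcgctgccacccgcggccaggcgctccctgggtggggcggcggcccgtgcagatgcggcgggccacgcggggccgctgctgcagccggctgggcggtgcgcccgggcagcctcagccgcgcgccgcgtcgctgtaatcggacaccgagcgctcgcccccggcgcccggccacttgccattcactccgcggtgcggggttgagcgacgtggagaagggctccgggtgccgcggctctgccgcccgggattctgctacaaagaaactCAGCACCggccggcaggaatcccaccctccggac
Sema5b: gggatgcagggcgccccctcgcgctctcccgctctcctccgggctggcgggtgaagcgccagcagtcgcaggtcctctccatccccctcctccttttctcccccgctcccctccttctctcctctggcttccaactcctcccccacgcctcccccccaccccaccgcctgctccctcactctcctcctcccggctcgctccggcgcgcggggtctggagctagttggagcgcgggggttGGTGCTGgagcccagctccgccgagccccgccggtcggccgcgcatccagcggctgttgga
Sema6d: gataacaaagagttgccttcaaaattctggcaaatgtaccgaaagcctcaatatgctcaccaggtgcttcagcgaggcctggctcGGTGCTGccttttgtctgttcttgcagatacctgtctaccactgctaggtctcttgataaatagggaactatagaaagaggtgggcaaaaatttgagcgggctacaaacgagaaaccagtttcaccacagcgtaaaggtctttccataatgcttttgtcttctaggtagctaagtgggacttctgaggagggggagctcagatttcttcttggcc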

How the data were processed

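Deposited values were log2 normalized counts per gene in 25 libraries. From 3′ mRNA-seq reads the authors made them with the aligner STAR (mm10, GRCm38), the quantifier Salmon and gene sums by tximport. Genes without counts in most samples were removed by the authors, library scaling was that of DESeq2 (geometric mean), RUV took out batch effects, and 2 components of sequencing and alignment metrics were regressed out. Versions of these tools are not given in the sources used here. The base of the logarithm is taken from the study's axis for these values. The authors' own fold changes and p-values, which the same table holds for their comparisons, were not used. The study gives an average read depth over the libraries, and the depth of each is not given in the sources used here. Of 9955 rows, 24 without a symbol (0.241%) were left out, and 0 columns of other samples were used.

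Values of 9931 genes were fitted with limma 3.58.1 in R 4.3.3, with a mean for each of the 8 groups, both components and a mean-variance trend, as 10 comparisons, 3 interactions and 1 moderated F test. Since the components had already been regressed out, keeping them in the model makes fitted differences differ from differences of group means. Adjusted p-values are Benjamini-Hochberg values, with a threshold of 0.1. Library values are given for members with an unadjusted p under 0.05 and no overlap between the groups, and other pathway genes are named by the same rule, at most 5 per comparison. Library values of the members whose groups overlapped, and of Crmp1, Dpysl2, Dpysl3 and Dpysl4, were added after seeing the data. Other members are named by family or by their counts. Some single marker genes are not reported here. The scripts were tested on simulated data. Members and gene lists were chosen with earlier results of these data known. Positions are from GENCODE (GRCm38) and promoters from RefSeq (GRCm38.p6). Alternatives were no components, a batch term, a sex term, library weights, quantile normalization, a mean log2 of at least 0 and leaving out each library of the 2 compared groups. A term for the share of low values and fits without WT SCI day 3 replicate 5 were added after seeing the data.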

Additional observations from a re-analysis of the deposited data

Results flagged for a closer look

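In the groups of 4 libraries, 88 sets of 4 values (44 members in 2 groups) were searched for a library far from the other 3, and 5 had one, which is about the number that chance gives at 1 in 20 groups. In WT sham, Epha4 was -2.99 in replicate 10 and 0.21, 0.41 and 0.71 in the others, and Rtn4rl1 was 0.91 in replicate 17 and 2.12, 2.16 and 2.37 in the others (log2 levels). In REST cKO SCI day 3, Ephb6 was -2.97 in replicate 9 and -0.36, -0.11 and -0.07 in the others. Robo2 was 0.67 in replicate 15 and -2.90, -2.68 and -2.33 in the others, and Slit3 was -0.0652 in the same library and -0.57, -0.54 and -0.52 in the others. The groups of 2 or 3 libraries are too small for this comparison. No member passed the adjusted threshold in an interaction of genotype and injury. The cause of these values was not tested.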

How the results depend on the processing

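The 26 named differences kept their sign and stayed short of an adjusted p of 0.1 (limma) in all 354 alternatives in which they could be computed, with single libraries left out included. The 26 were chosen for groups without overlap, so leaving out a library cannot turn the sign of a difference of group means. Their steady sign was therefore largely fixed by that choice. The count of members past the adjusted threshold was 0 to 0 in every comparison without single libraries. At an unadjusted p under 0.05 the counts were less steady, and the cause was not tested. Without the components 1 member was counted in REST cKO on day 3 and 4 between genotypes on day 3. A batch term gave 1 in REST cKO on day 1 and 1 on day 3. A sex term gave 2 in WT on day 7 and 3 between genotypes on day 7. Library weights gave 8 in WT on day 1 and 0 on day 7. Quantile normalization gave 4 in WT on day 7 and 3 between genotypes on day 7. A mean log2 of at least 0 leaves 6901 genes and 23 of the 44 members, so some named members have no value there; it gave 1 in WT on day 1, 0, 0 and 2 in REST cKO on days 1, 3 and 7, and 1, 3 and 1 between genotypes in sham and on days 3 and 7. Chosen after seeing the data, a term for the share of low values gave 2 in WT on day 7 and 3 and 3 between genotypes on days 3 and 7, and fits lacking WT SCI day 3 replicate 5 gave 5 in REST cKO on day 1 and 3 between genotypes on day 3. When single libraries of the 2 compared groups were left out the count ran from 2 to 6, 3 to 6 and 0 to 4 in WT on days 1, 3 and 7, from 1 to 4, 1 to 4 and 2 to 4 in REST cKO, and from 3 to 6, 2 to 3, 3 to 8 and 0 to 8 between genotypes in sham and on days 1, 3 and 7. Where that leaves 1 library in REST cKO SCI day 1, it is assumed to vary like the other groups. The member median moved by more than its spread between libraries (SD 0.221) in 17 of 144 alternatives. No analysis paired by replicate number was possible, because these numbers are unique to each library and none is shared between groups. Libraries were blocked by batch in the fits with a batch term.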
